A study of Mus musculus with 3 samples.

Results

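The Reelin and neuronal migration genes are 10 genes of 1 signalling route and of the motor and kinase machinery that moves neurons: Reln, Dab1, Lrp8, Vldlr, Pafah1b1, Ndel1, Nde1, Cdk5, Cdk5r1 and Cdk5r2. They were chosen by gene symbol from the 39377 rows of the deposited table, with no cutoff on their values. Earlier results of these data were known when the choice was made. All 10 symbols were found and all 10 passed the filter for testing, a mean of at least 1 FPKM (mapped fragments, scaled to 1000000 per library and to each kilobase of transcript). The samples were 3 libraries of total RNA from hippocampus of C57BL/6 mice with the genotype WT at postnatal day 14, labelled as tissue of mixed cell types and with no treatment named. They formed 1 group and are called libraries 1, 2 and 3. Whether each library stands for its own animal is not stated, so the spread given here may be partly or wholly technical. In bulk RNA, fewer cells of a type and less RNA per cell cannot be told apart.

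Reelin is a large glycoprotein secreted by Cajal-Retzius cells at the surface of the developing cortex and hippocampus and, later, by GABAergic interneurons. It binds the lipoprotein receptors APOER2, encoded by Lrp8, and VLDLR, after which Src family kinases phosphorylate the adaptor DAB1 bound to the receptor tails. LIS1, encoded by Pafah1b1, works with NDEL1 or NDE1 on the dynein motor that pulls the nucleus of a migrating neuron. The kinase CDK5, which CDK5R1 or CDK5R2 activates, acts on NDEL1 and other cytoskeletal proteins. In mice, loss of Reelin, of DAB1 or of both receptors together disturbs the layers of the cortex and hippocampus.

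The depth behind these values was about 3692000, 4138000 and 5896000 fragments, an estimate read from the step sizes of low values. The 6 markers of hippocampal neurons were all above 0 in every library and summed to 585, 531 and 609 FPKM. Markers of other cells were also present, and among them the 3 choroid plexus markers (Ttr, Folr1, Kcnj13) stood apart by library, with summed levels of 395, 1080 and 1306 FPKM. Red cell markers summed to 645, 768 and 607 FPKM. The part of these cells in the results below was not tested.

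Statements on which library was highest or lowest refer to FPKM as deposited. With median-ratio size factors, the highest and the lowest library stayed the same for 10 of the 10 genes. When each library was rescaled to a sum of 1000000 (TPM, a check of library order added after the data were seen), both stayed the same for 2 of the 10, Reln and Cdk5r2. The sums entering TPM were 743038, 820068 and 637844 FPKM in libraries 1, 2 and 3. They include Bc1, a short noncoding RNA gene of neurons, at 124074 and 179412 FPKM in libraries 1 and 2. Bc1 was listed at 0 in library 3, so it entered the TPM scaling of libraries 1 and 2 only. TPM without Bc1 was not formed. The median-ratio size factors, taken from genes above 0 in every library and so without Bc1, were 1.009, 1.000 and 0.996. Under TPM the median of the genes above 0 in every library lay, in library 3, 0.34 log2 units above library 2 and 0.18 above library 1, against -0.02 and -0.04 in FPKM, and 65.2% of the genes that passed the filter were highest in library 3. Ratios and shares formed inside a library do not depend on this scaling.

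Across the 10 genes the mean level ran from 11.1 FPKM for Vldlr to 98.1 FPKM for Cdk5r2, a range above the median of 10.5 FPKM over the 13337 genes that passed the filter. The order of means was Cdk5r2, Pafah1b1, Cdk5r1, Cdk5, Ndel1, Dab1, Nde1, Lrp8, Reln and Vldlr. From Pafah1b1 down to Lrp8, the libraries of each gene lay wholly above those of the next, except that under TPM those of Cdk5r1 and Cdk5 and those of Nde1 and Lrp8 overlapped. Overlaps between neighbours were found for Cdk5r2 with Pafah1b1, for Lrp8 with Reln and for Reln with Vldlr. Cdk5r2 was nevertheless above Pafah1b1 in 3 of 3 libraries, whereas the order of the other two pairs held in 2 of 3. The top 6 places were taken by the same genes in the same order in all 3 libraries, and only the ranks of Nde1, Lrp8, Reln and Vldlr changed. Since FPKM of different genes also depend on transcript length, base composition and mappability, a difference between genes is not a ratio of molecules.

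**Figure D1:**
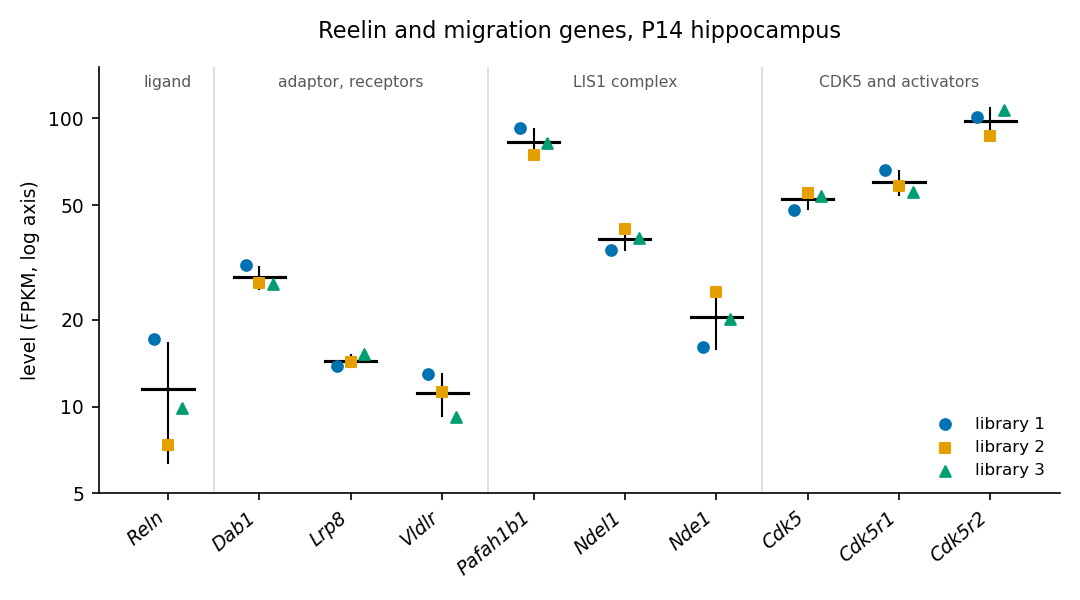
Level of the 10 genes in FPKM on a log axis, ordered by role. Points are libraries, horizontal bars are means of 3 libraries and vertical bars are ±1 SD. Cdk5r2 (86.7 to 107 FPKM) and Pafah1b1 (74.7 to 92.4 FPKM) are highest, and Reln has the widest spread, from 7.36 to 17.2 FPKM.

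Reln, the ligand gene, lies on the minus strand of chromosome 5 (chr5:21884454-22344702, GRCm38) and its principal transcript has 65 exons and 11699 bases. Its level was 17.2 FPKM in library 1, 7.36 in library 2 and 9.86 in library 3, a mean of 11.5 ± 5.13 FPKM (SD, n = 3). Library 1 was high and the other two were low, and the highest value was 2.34 times the lowest. These values rested on about 726, 348 and 666 fragments, with counting errors of 3.71%, 5.36% and 3.87%, against a coefficient of variation over libraries of 44.6%. The SD of log2(FPKM + 1) of Reln exceeded that of 97.3% of the 9202 genes with a mean of at least 5 FPKM, where the median coefficient of variation was 11.2%. Without library 1 the mean of Reln was 8.61 FPKM. A noncoding gene annotated on the opposite strand, Gm10475, overlaps its exons and was listed at 0 in all 3 libraries.

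Like Reln, 8 of the 9 Cajal-Retzius markers had their highest value in library 1 in FPKM, and 6 of the 9 under TPM, where Tbr1 and Cacna2d2 were highest in library 3. Of all genes that passed the filter 36.5% were highest in library 1 (24.1% under TPM), of all genes above 0 in any library 35.4% were in FPKM. Trp73, a transcription factor gene typical of Cajal-Retzius cells, was at 1.32, 0.80 and 0.88 FPKM in libraries 1, 2 and 3. Ebf3, a transcription factor gene of the same cells, stood at 1.07, 0.44 and 0.32 FPKM. The homeobox genes Lhx5 and Lhx1 were at 0.66, 0.29 and 0.21 FPKM and at 0.37, 0.25 and 0.09 FPKM, and Barhl2 at 0.39, 0.12 and 0.16 FPKM. These defining markers were low throughout, and Lhx5, Lhx1 and Barhl2 rested on about 1 to 6 fragments per library, so their order over libraries was not resolved at this depth. Trp73 rested on about 23, 16 and 25 fragments and Ebf3 on about 18, 8 and 9. The lead of library 1 was not resolved for Trp73 either, and for Ebf3, also with few fragments, it was not tested.

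The more abundant markers of the list are also made by other neurons. Calb2, the calretinin gene, was at 99.1, 83.2 and 69.6 FPKM, Tbr1, a gene of glutamatergic neurons, at 7.47, 5.63 and 6.81 FPKM, and Cacna2d2, a calcium channel subunit gene, at 3.53, 2.88 and 3.15 FPKM. Ndnf, a gene of Cajal-Retzius cells and of neurogliaform interneurons, was the exception, at 2.37, 2.01 and 4.02 FPKM with its highest value in library 3. Tbr1 rested on about 102, 87 and 150 fragments and Cacna2d2 on about 64, 59 and 92. For both genes the small lead of library 1 over library 3 was not resolved at this depth. The summed level of the list was 116, 95.7 and 85.2 FPKM, and without Calb2, which made up most of it, 17.2, 12.4 and 15.6 FPKM. Whether the number of Cajal-Retzius cells in the tissue accounts for the Reln values was not tested.

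The 8 GABAergic interneuron markers did not share 1 order over libraries. Gad1 and Gad2, the genes of the GABA-synthesising enzymes, were at 51.6, 61.0 and 44.8 FPKM and at 19.8, 14.0 and 15.1 FPKM, and Slc32a1, the vesicular GABA transporter gene, at 25.8, 21.3 and 21.5 FPKM. The neuropeptide genes Sst and Npy reached 674, 808 and 654 FPKM and 207, 234 and 185 FPKM. Lamp5, a marker of neurogliaform interneurons, was at 7.47, 10.1 and 12.8 FPKM, lowest in library 1, while Lhx6 was at 6.65, 5.71 and 6.40 FPKM and Nr2f2 at 12.5, 9.74 and 9.02 FPKM. Libraries 1, 2 and 3 were highest for 4, 3 and 1 of the 8. Of all genes that passed the filter they were highest for 36.5%, 32.6% and 30.9%. Under TPM the counts were 3, 1 and 4 of the 8, beside 24.1%, 10.7% and 65.2% of all genes.

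**Figure D2:**
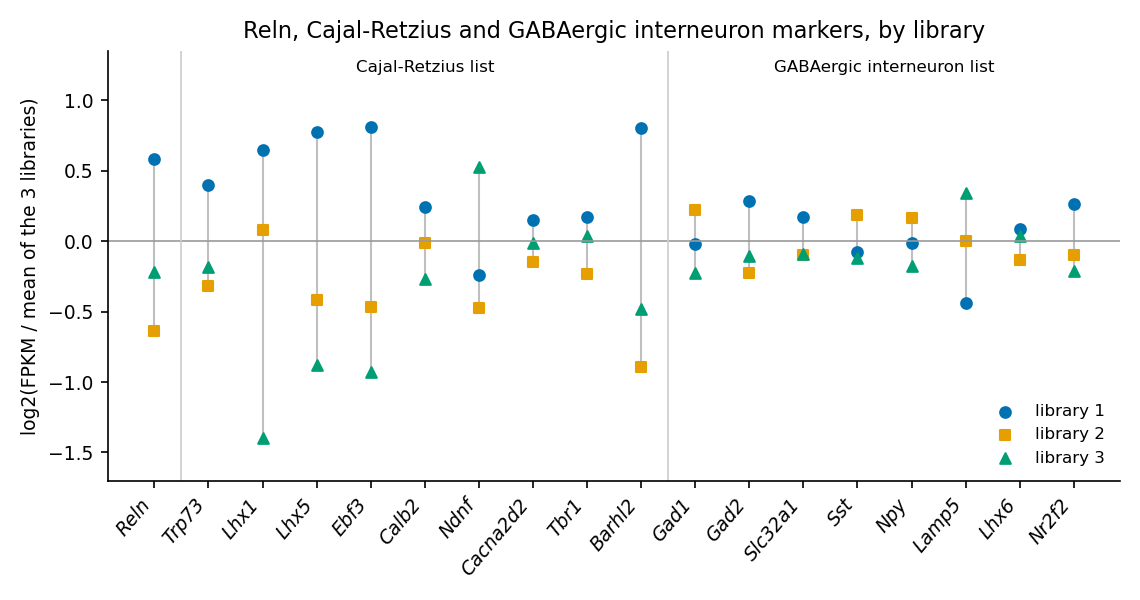
Level of Reln, of 9 Cajal-Retzius markers and of 8 GABAergic interneuron markers in each library, as log2 of FPKM over the mean of that gene's 3 libraries (vertical axis). Points are libraries, and grey lines join the values of a gene. Library 1 is highest for Reln and for all Cajal-Retzius markers except Ndnf, and for 4 of the 8 interneuron markers. Under TPM these are Reln, 6 of the 9 and 3 of the 8. Of all genes that passed the filter, library 1 is highest for 36.5% in FPKM and 24.1% under TPM. For Trp73, Lhx1, Lhx5, Barhl2, Tbr1 and Cacna2d2 the lead of library 1 was not resolved at this depth. For Ebf3 it rested on about 18, 8 and 9 fragments and was not tested.

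Against Reln as reference, genes were tested for a difference of more than 2-fold in log2(FPKM + 1) inside each library (limma's treat test with Benjamini-Hochberg adjustment over 13336 genes). In that fit 18.4% of all genes were higher and 15.6% were lower. Of the 5 Cajal-Retzius markers that passed the filter, 1 was higher, Calb2, by 2.83 log2 units (SE 0.383; adjusted p = 9.58e-06), and 1 was lower, Trp73 (difference -2.57 log2 units, SE 0.383; adjusted p = 0.000167). Of the 8 interneuron markers, Sst, Npy and Gad1 were higher, by 5.91, 4.14 and 2.16 log2 units, and 0 were lower. At an unadjusted p under 0.05 that count of lower markers was also 0. The 5 called genes differed from Reln in the same direction in 3 of 3 libraries. The fit gave the same SE, 0.383, to every gene. With the variances of gene and reference moderated separately, an alternative added after the data were seen, limma's adjusted p was 0.000819 for Calb2 and 0.00185 for Trp73. The call of Gad1 was lost without library 2 (limma adjusted p = 0.0968) and without library 3 (adjusted p = 0.105), and without library 1 Trp73 fell below the filter.

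Of the receptor genes, Lrp8 was above Vldlr in every library, by less than 2-fold. Lrp8 (chromosome 4, plus strand, chr4:107802261-107876840) was at 13.8, 14.3 and 15.2 FPKM, a mean of 14.4 ± 0.712 FPKM. Its coefficient of variation was 4.93% in FPKM and 17.2% under TPM, beside its counting errors of 6.77%, 6.28% and 5.08%. Vldlr (chromosome 19, plus strand, chr19:27216484-27254231) was at 13.0, 11.3 and 9.21 FPKM, a mean of 11.1 ± 1.87 FPKM. In FPKM the ranges of the 2 genes did not overlap. Under TPM Lrp8 ran from 17.38 to 23.8 and Vldlr from 13.7 to 17.43, with a slight overlap. The ratio of Lrp8 to Vldlr was 1.07, 1.27 and 1.65, a mean of 1.33 ± 0.297, and Lrp8 made up 51.6%, 55.9% and 62.3% of the summed receptor level. The difference of 0.36 log2 units (SE 0.233) was not called, either against a null of at most 2-fold (limma adjusted p = 1; 22.2% of all genes were called higher than Vldlr) or against a null of no difference (adjusted p = 0.147; 38.7%), although Lrp8 was higher in 3 of 3 libraries.

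Because the receptors are related proteins, reads could in principle be assigned to the wrong gene, so their coding sequences (GENCODE M21, GRCm38) were compared. Over 2489 aligned coding bases, Lrp8 and Vldlr were identical at 63.1%. Of the windows of 75 bases along the principal transcripts, 1 of 4481 for Lrp8 and 0 of 7897 for Vldlr were found in a transcript of another gene on either strand.

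Dab1, the intracellular adaptor gene, stood above both receptor genes and above the ligand gene. Its level was 31.0, 26.7 and 26.6 FPKM, a mean of 28.1 ± 2.51 FPKM, highest in library 1. Under TPM libraries 1 and 3 were nearly equal, at 41.7 and 41.6, and library 2 was at 32.6. The gene spans chr4:103619359-104744844 on the plus strand, and its principal transcript has 15 exons and 5278 bases. The summed level of Lrp8 and Vldlr was 0.864, 0.954 and 0.920 times that of Dab1, a mean of 0.913 ± 0.0455. The ratio of Dab1 to Reln was 1.80, 3.63 and 2.69, lowest in library 1, where Reln was highest. Vldlr differed from Dab1 by -1.27 log2 units (SE 0.118), just short of a call against the 2-fold null (limma adjusted p = 0.0512; range 0.0355 to 0.228 over the alternatives with that null). Lrp8 differed from it by -0.91 log2 units (SE 0.123; limma adjusted p = 1), and Dab1 lay 1.30 log2 units above Reln (SE 0.383; limma adjusted p = 0.440). Of all genes, 50.8% were called lower than Dab1 and 18.4% higher than Reln. All 3 differences had 1 sign in 3 of 3 libraries and were called against a null of no difference (limma adjusted p = 7.80e-05, 0.000485 and 0.00144), under which 70.0% of all genes were lower and 20.6% higher than Dab1, and 32.5% higher and 34.9% lower than Reln. The call of Dab1 over Reln came from the fit that gave the same SE to every gene. The fit with separately moderated variances was not run against this null.

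**Figure D3:**
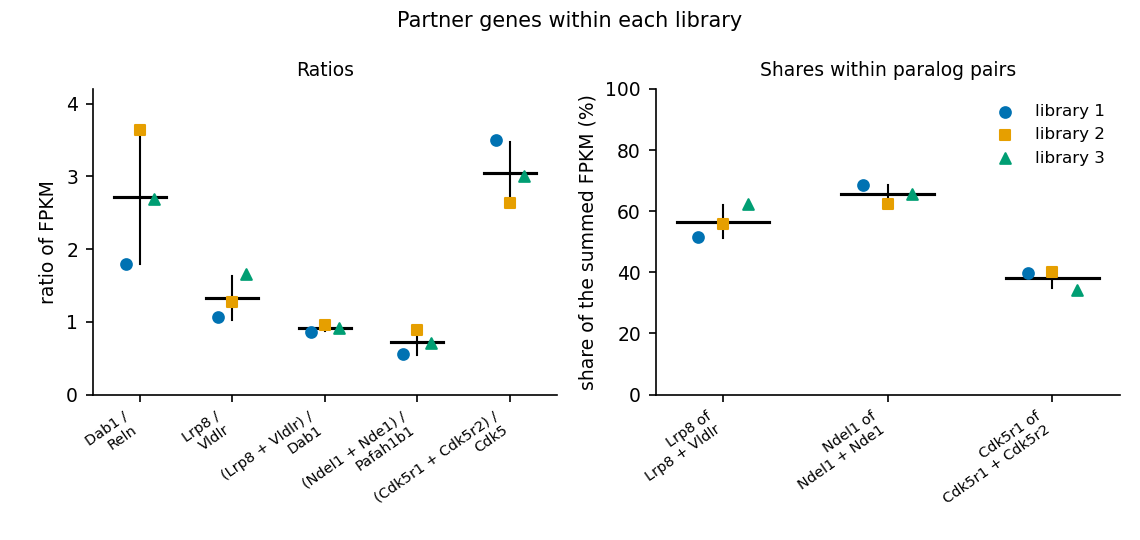
Ratios of partner genes (left, ratio of FPKM) and shares inside the 3 paralog pairs (right, percent of the summed FPKM), formed in each library. Points are libraries, horizontal bars are means and vertical bars are ±1 SD. The ratio of both receptor genes to Dab1 stays between 0.864 and 0.954, while Dab1 over Reln runs from 1.80 to 3.63.

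The Reelin list held kinases, adaptors, exchange factors, cytoskeletal effectors, proteases and receptor regulators that act with the receptors and DAB1. Of its 28 genes, 26 passed the filter, and 6 of these were higher than Dab1, 7 were lower and 13 were not called (limma, 2-fold null). Over all genes 10.9% were higher and 50.8% were lower, and the median difference was -0.24 log2 units in the list and -1.36 over all genes tested. Of the kinases that phosphorylate DAB1, Fyn was at 119, 102 and 105 FPKM and 1.91 log2 units above Dab1 (SE 0.108; limma adjusted p = 0.000229). Src, another kinase of the family, was at 22.9, 19.7 and 22.0 FPKM and was not called. The adaptor genes that bind phosphorylated DAB1 differed, with Crk at 57.0, 55.4 and 46.3 FPKM, not called, and Crkl at 7.13, 9.69 and 9.17 FPKM, -1.60 log2 units from Dab1 and called lower (SE 0.155; limma adjusted p = 0.00791). Rapgef1, the gene of the Rap exchange factor that they bring to the membrane, was at 26.8, 28.5 and 30.1 FPKM and was not called (difference 0.02 log2 units, SE 0.126). The highest gene of the list was Cfl1, an actin-severing factor gene, at 697 ± 43.9 FPKM, and whether its reads are shared with related sequences was not tested.

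Genes that end or limit the signal were found over a wide range. Among the genes for the ubiquitin ligase that removes phosphorylated DAB1, Rnf7 was at 125, 159 and 105 FPKM and was called higher than Dab1 (limma adjusted p = 0.000402), whereas Cul5 at 11.1, 11.8 and 11.0 FPKM and Socs7 at 14.8, 14.96 and 13.8 FPKM were not called. Mylip, whose product targets the lipoprotein receptors for degradation, was at 6.13, 5.42 and 5.44 FPKM and was called lower (limma adjusted p = 9.08e-05). Lrpap1, the chaperone gene of these receptors, was at 64.3, 60.6 and 67.2 FPKM and was not called. Of the protease genes linked to cleavage of Reelin, Plat was the highest at 23.5, 27.8 and 25.9 FPKM. Adamts3 was at 7.01, 6.03 and 5.08 FPKM and Adamts4 at 2.50, 1.79 and 1.91 FPKM, both called lower than Dab1. Adamts2, at 0.89, 0.97 and 0.99 FPKM, and Adamts5, at 0.20, 0.18 and 0.10 FPKM, were the 2 genes of the list under the filter. Without library 2 the call of Rap1b was lost (limma adjusted p = 0.0834), and without library 3 that of Pik3ca (adjusted p = 0.0630).

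Pafah1b1, the LIS1 gene, was the second most abundant of the 10 genes. It was at 92.4, 74.7 and 82.0 FPKM, a mean of 83.0 ± 8.93 FPKM, lowest in library 2, and highest in library 1 in FPKM but in library 3 under TPM. The gene lies on the minus strand of chromosome 11 (chr11:74673949-74724670), and 4 of 5729 windows of its principal transcript were found in annotated pseudogenes of the same gene. Ndel1, also on the minus strand of chromosome 11 (chr11:68821434-68871858), was at 34.9, 41.3 and 38.5 FPKM, a mean of 38.2 ± 3.24 FPKM. Nde1, on the plus strand of chromosome 16 (chr16:14163275-14192928), was at 16.1, 25.1 and 20.1 FPKM, a mean of 20.4 ± 4.50 FPKM. Both partner genes were lowest in library 1, and highest in library 2 in FPKM but in library 3 under TPM. The summed level of Ndel1 and Nde1 was 0.551, 0.889 and 0.714 times that of Pafah1b1, a mean of 0.718 ± 0.169. Nde1 rested on about 119, 210 and 242 fragments, with counting errors of 9.16%, 6.90% and 6.43%, and it shares exonic sequence with Marf1, a protein-coding gene on the opposite strand at 4.01, 3.67 and 4.12 FPKM. Whether counting used strand is not given in the sources used here, but 3 of 2213 windows of the principal Nde1 transcript were shared.

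Nde1 differed from Pafah1b1 by -1.99 log2 units (SE 0.189), the only 1 of the 10 pairs of members compared that was called against the 2-fold null (limma adjusted p = 0.000786; lower in 3 of 3 libraries), in a fit that called 78.3% of all genes lower than Pafah1b1. Ndel1 differed from Pafah1b1 by -1.10 log2 units (SE 0.152) and was not called (limma adjusted p = 0.319). Nde1 differed from Ndel1 by -0.89 log2 units (SE 0.133) and was not called either (limma adjusted p = 0.989), where 59.5% of all genes were lower than Ndel1. Ndel1 made up 68.4%, 62.3% and 65.7% of the summed level of both, so the share was above that of Nde1 in every library. Against a null of no difference both of the latter pairs were called as lower (limma adjusted p = 0.000192 and 0.000384), where 88.3% of all genes were lower and 6.99% higher than Pafah1b1 and 76.3% lower than Ndel1.

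NDEL1 and NDE1 are close relatives, and the coding sequences of their genes were identical at 64.3% of 1009 aligned bases. Their longest identical run had 18 bases, far under the read length of 150 bases. It is printed in capitals with 15 coding bases on each side in lower case, 5′ to 3′, to show how soon the genes differ beside it, and comes from exon 3 of Ndel1 (chr11:68843929-68843946, minus strand) and exon 3 of Nde1 (chr16:14170366-14170383, plus strand).
Ndel1: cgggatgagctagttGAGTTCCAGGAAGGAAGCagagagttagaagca
Nde1: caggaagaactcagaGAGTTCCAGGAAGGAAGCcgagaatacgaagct
No window of 75 bases of Ndel1 (0 of 2308) was found in a transcript of another gene.

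Most genes of the dynein and LIS1 list were likewise not called against Pafah1b1. Of 19 genes, 18 passed the filter, with 2 higher, 5 lower and 11 not called, where 3.76% of all genes were higher and 78.3% were lower. The median difference was -0.55 log2 units in the list and -2.89 over all genes tested. The highest was Ywhae, the gene of an adaptor protein that protects phosphorylated NDEL1, at 849, 680 and 691 FPKM and 3.14 log2 units above Pafah1b1 (SE 0.129; limma adjusted p = 9.20e-07). Dync1h1, the dynein heavy chain gene, was at 21.2, 9.66 and 28.7 FPKM, -2.13 log2 units from Pafah1b1 and called lower (SE 0.243; limma adjusted p = 0.00151), with library 2 well under the others. Dctn1, the largest dynactin subunit gene, was at 59.3, 55.5 and 58.3 FPKM, and Nudc, a LIS1-stabilising factor gene, stood at 92.4, 84.6 and 93.8 FPKM. Pafah1b2 and Pafah1b3 encode the catalytic subunits that join LIS1 in the platelet-activating factor acetylhydrolase. Pafah1b2 was at 74.5, 101 and 78.7 FPKM and was not called, and Pafah1b3 was lower at 37.0, 31.6 and 28.3 FPKM (limma adjusted p = 0.0243), a call lost without library 3 (adjusted p = 0.222). Dcx, the doublecortin gene of migrating neurons, was at 14.9, 11.5 and 9.71 FPKM and was called lower (limma adjusted p = 6.01e-06), as was Katna1, the microtubule-severing katanin gene, at 4.26, 5.80 and 7.46 FPKM.

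Cdk5, the kinase gene, was below both of its activator genes in all 3 libraries. Its level was 47.9, 55.1 and 53.9 FPKM, a mean of 52.3 ± 3.85 FPKM, lowest in library 1. Cdk5r1 was at 66.4, 58.1 and 55.5 FPKM, a mean of 60.0 ± 5.68 FPKM, and Cdk5r2, the highest of the 10 genes, at 101, 86.7 and 107 FPKM, a mean of 98.1 ± 10.3 FPKM. The libraries of Cdk5r2 all lay above those of Cdk5r1, which in turn lay just above those of Cdk5, with the lowest Cdk5r1 value at 55.5 and the highest Cdk5 value at 55.1 FPKM, an order that under TPM gave overlapping ranges. Cdk5r1 was highest in library 1 and Cdk5r2 in library 3, while the highest Cdk5 value was in library 2 in FPKM and in library 3 under TPM. The genes lie at chr5:24418241-24423530 (Cdk5, minus strand), chr11:80477023-80481184 (Cdk5r1, plus strand) and chr1:74854934-74857732 (Cdk5r2, plus strand), and the principal transcripts of both activator genes have 1 exon.

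The summed activator level was 3.49, 2.63 and 3.01 times that of Cdk5, a mean of 3.04 ± 0.435, and Cdk5r1 made up 39.6%, 40.1% and 34.2% of it. Cdk5r2 stood 0.89 log2 units above Cdk5 (SE 0.132; limma adjusted p = 0.944 against the 2-fold null) and 0.70 above Cdk5r1 (SE 0.132; limma adjusted p = 1). Both were called against a null of no difference (limma adjusted p = 0.000525 and 0.00170; higher in 3 of 3 libraries), where 11.7% and 10.1% of all genes were higher than Cdk5 and Cdk5r1. Cdk5r1 exceeded Cdk5 by 0.19 log2 units (SE 0.135), which was not called under either null (limma adjusted p = 1 and 0.210). With the 2-fold null, 5.88% of all genes were called higher than Cdk5 and 5.13% higher than Cdk5r1.

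The activator genes are the most similar of the 3 paralog pairs, with 71.1% identity over 918 aligned coding bases. The longest identical run had 23 bases and is again in capitals, from the single exon of Cdk5r1 (chr11:80478226-80478248, plus strand) and of Cdk5r2 (chr1:74855923-74855945, plus strand).
Cdk5r1: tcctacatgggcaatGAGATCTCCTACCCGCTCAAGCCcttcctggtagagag
Cdk5r2: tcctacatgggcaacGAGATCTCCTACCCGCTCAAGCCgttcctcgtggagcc
None of the 75-base windows of Cdk5r1 (0 of 4088), Cdk5r2 (0 of 2725) or Cdk5 (0 of 1985) was found in a transcript of another gene.

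In the CDK5 list of regulators and substrates, 21 of 21 genes passed the filter, with 1 higher than Cdk5, 10 lower and 10 not called. Over all genes 5.88% were higher and 68.6% were lower, and the median difference was -1.20 log2 units in the list and -2.24 over all genes tested. Dnm1, the dynamin gene of synaptic vesicle uptake and a CDK5 substrate gene, was the highest at 207, 188 and 241 FPKM and 1.99 log2 units above Cdk5 (SE 0.131; limma adjusted p = 0.000196). Ccne1, whose product can hold CDK5 inactive, was at 5.71, 4.77 and 4.14 FPKM, and Cables1, the gene of a CDK5-binding adaptor, at 4.48, 5.87 and 6.18 FPKM. Of the calpain genes, whose proteases cleave CDK5R1, Capn2 was at 26.2, 30.2 and 32.3 FPKM and was not called, and Capn1 was at 5.33, 2.80 and 4.44 FPKM. Cast, the calpain inhibitor gene, was at 2.19, 2.22 and 1.39 FPKM. Ccne1, Cables1, Capn1 and Cast were all called lower than Cdk5, in 3 of 3 libraries each (limma adjusted p at most 1.44e-05). Ptk2, the focal adhesion kinase gene and a CDK5 substrate gene in migrating neurons, was at 27.6, 19.98 and 19.9 FPKM. With all 3 libraries it was not called against the 2-fold null (limma adjusted p = 0.176), and without library 1 it was called lower (adjusted p = 0.0149).

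**Figure D4:**
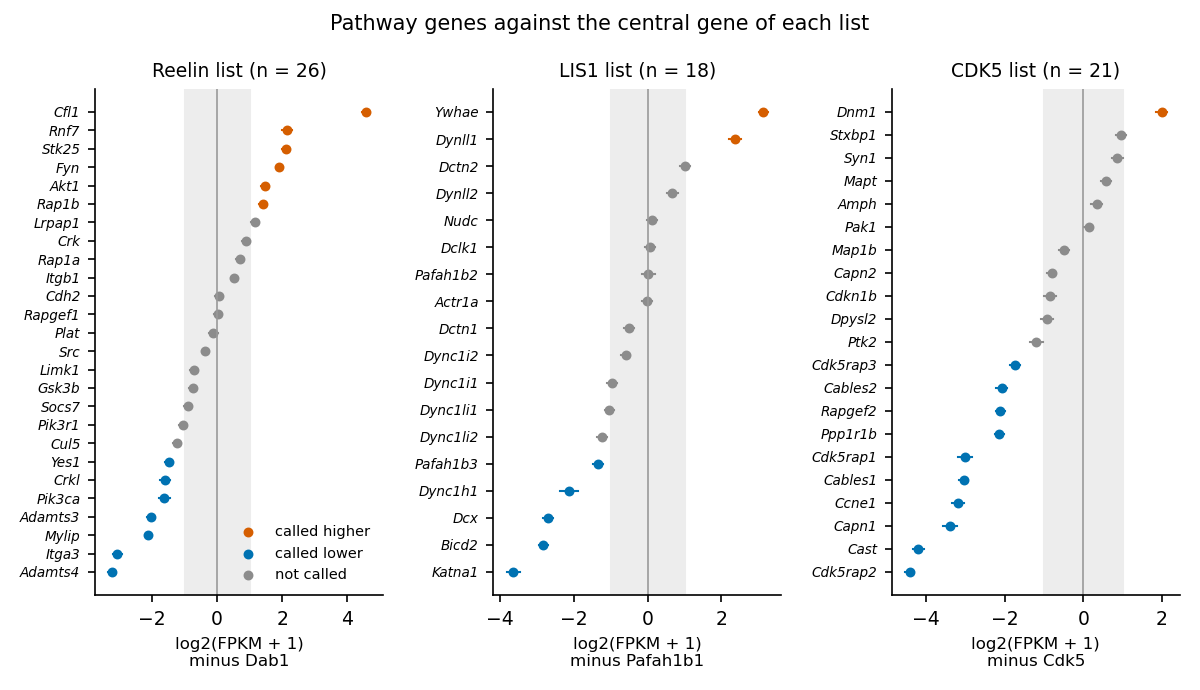
Difference in log2(FPKM + 1) of the tested genes of the Reelin list from Dab1, of the LIS1 list from Pafah1b1 and of the CDK5 list from Cdk5 (horizontal axes). Points are means of 3 libraries with ±1 SE, the grey band marks differences of at most 1 log2 unit, and colours mark limma calls against that band. Higher and lower calls number 6 and 7 of 26, 2 and 5 of 18, and 1 and 10 of 21.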

How the data were processed

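The authors deposited 1 table of FPKM for 3 hippocampus libraries, per the file headers, and column numbers were paired with the numbers in the sample titles. Bowtie2 and the build GRCm38 (mm10) are named in the submitters' processing notes, and the read length is per the labels' protocols. For the counter, annotation, strand setting and versions, nothing is given in the sources used here. The members and lists were chosen with earlier results of these data known. Named genes were the 10 members, a fixed set from the Reelin, LIS1 and CDK5 lists with the highest of each, and all Cajal-Retzius and interneuron markers. Rap1b and Pik3ca were named after their values were seen.

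Log2(FPKM + 1) of a gene minus that of a reference gene was formed in each library and fitted over all genes with a mean of at least 1 FPKM (limma 3.58.1, treat, null of 1 log2 unit, R 4.3.3). P-values were Benjamini-Hochberg adjusted over all genes of a fit, with calls under 0.05. With 3 libraries, an exact sign-flip p is at least 0.25. Depth was taken as the fragment number at which values of up to 4 fragments, in genes with 1 transcript of at least 800 bases, came out within 0.15 of whole numbers (93.1%, 92.2% and 90.9% did). It was fitted on these values, together with the bases taken off each length. The fragment number was searched over a preset range, so a depth outside that range could not be chosen. Fragment numbers assume the principal GENCODE M21 transcript, and counting errors (the inverse root of the fragments) cover counting only. The run shared by 1 paralog pair is not reported here. Python 3.11.15, numpy 2.4.6, pandas 2.3.3 and matplotlib 3.10.9 were used.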

Additional observations from a re-analysis of the deposited data

How the results depend on the processing

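Of 80 alternative fits of the 10 pairs, 70 kept their direction and side of the threshold, 10 became calls and 0 reversed. Against a null of equal levels, Dab1 minus Reln (1.30), Lrp8 minus Dab1 (-0.91), Vldlr minus Dab1 (-1.27), Ndel1 minus Pafah1b1 (-1.10), Nde1 minus Ndel1 (-0.89), Cdk5r2 minus Cdk5 (0.89) and Cdk5r2 minus Cdk5r1 (0.70 log2 units) were called. Vldlr minus Dab1 was also called with a pseudocount of 0.1 FPKM (-1.34), with every gene above 0 tested (-1.27) and with a trended prior variance (-1.27). List counts moved by over 1.5 times in 8 of 80 alternatives. Against the null of equal levels, 10 of 26 genes of the Reelin list were higher and 13 lower (20.6% and 70.0% of all genes). In the LIS1 list 4 of 18 were higher and 10 lower (6.99% and 88.3% of all genes). In the CDK5 list 5 of 21 were higher (11.7% of all genes). Its 15 lower were not among the counts that moved, and no share over all genes was formed for them. Among 5 Cajal-Retzius markers 3 were lower and 1 was higher (34.9% and 32.5% of all genes). With every gene above 0 tested, 5 of 9 Cajal-Retzius markers were lower than Reln, and the share of all genes was not formed. The median difference there was -2.57 log2 units in the list and -1.12 over all genes tested. Leaving out 1 library gave 0 to 1 lower markers, with 0 without replicate 1. Rescaled to TPM, means were 38.6 for Dab1, 19.9 for Lrp8, 15.2 for Vldlr, 115 for Pafah1b1, 52.5 for Ndel1, 27.9 for Nde1, 72.1 for Cdk5, 82.4 for Cdk5r1 and 136 for Cdk5r2, because FPKM of a library sum to less than 1000000. All 32 alternative ratios and shares stayed within 1 SD. Leaving out 1 of 3 libraries cannot move a mean that far, so only the ratios of FPKM + 1 could have left that range. A fit that moderates the variance of gene and reference separately, added after the data were seen, kept every pair call and list count. It was run with the 2-fold null only. Differences between genes were formed inside each library, and no comparison of groups was possible because there was 1 group. For a transcript of 2 kb, 3 fragments were worth 0.472, 0.417 and 0.289 FPKM, which limits Lhx1, Lhx5, Barhl2 and Adamts5.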
